A study of Mus musculus with 18 samples.

Results

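Max-null mouse embryonic stem cells (ESCs) that overexpress p110 alpha and were grown with doxycycline (Dox), 1 array, were compared with Max-null ESCs after 4 days of Dox and after 6 days of Dox, 1 array each. All 3 samples are EBRTcH3 ESCs of 129SV background from males, were cultured with LIF and serum, and share the Max-null genotype, in which Dox ablates Max expression per the design. The same lines without Dox, again p110 alpha-overexpressing Max-null ESCs and Max-null ESCs with 1 array each, gave the difference between the lines before Dox. The length of Dox treatment is stated for the Max-null ESCs only, so line and length of treatment cannot be told apart. Neither the promoter that drives p110 alpha nor whether each line is 1 clone is given in the sources used here. The genes described are those whose log2 difference had the same sign against day 4 and against day 6. These were 11371 of the 14127 genes tested (80.5%), out of 18194 genes measured in a series of 18 arrays. Of them, 6347 were higher and 5024 lower in p110 alpha Max-null ESCs with Dox, and the other 2756 genes tested had opposite signs. Both differences use the same p110 alpha array, which favours the same sign on both days, so the 2 days are no replication.

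p110 alpha, encoded by Pik3ca, is a catalytic subunit of phosphoinositide 3-kinase (PI3K), which produces the lipid signal that activates the kinase Akt and promotes growth and self-renewal of mouse ESCs. Max is the partner with which Myc and Mycn bind the E-box in DNA and activate genes for growth. Max also pairs with Mga in PRC1.6, a polycomb complex with E2f6, L3mbtl2 and Pcgf6 that keeps germ cell genes silent in ESCs.

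Levels are log2 RMA values of 1 probe set per gene. The day 6 array of the Max-null ESCs stood apart from all the others, with a median of 5.52 and an SD over probe sets of 2.36. Medians were 5.35 in p110 alpha Max-null ESCs with Dox and 5.40 in Max-null ESCs at day 4, and the SD of the other 17 arrays ranged from 2.48 to 2.57. Differences are therefore given for each day, and the 2-fold counts, those of the 27 lists included, were also made for day 4 alone. ESC markers were above the level filter of 4.64 for 9 of 10 genes in all 5 arrays, the exception being Fut4. Across all probe sets the array of p110 alpha Max-null ESCs with Dox correlated at r = 0.992 with its own untreated line, at 0.988 with untreated Max-null ESCs, at 0.969 with Max-null ESCs at day 4 and at 0.950 with day 6, values that describe single arrays that share a platform and a normalization. With Dox, 265 genes (1.88% of those tested) differed at least 2-fold from the untreated sample of the line in p110 alpha Max-null ESCs. The same count was 1867 genes (13.2%) in Max-null ESCs at day 4 and 3427 genes (24.3%) at day 6.

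Max, whose loss defines both lines, had a level of 6.33 in p110 alpha Max-null ESCs with Dox, against 6.89 at day 4 and 7.18 at day 6 in Max-null ESCs. Without Dox it was 6.70 in p110 alpha Max-null ESCs and 7.09 in Max-null ESCs, and in the other 13 arrays of the series it lay between 8.17 and 8.71. All 5 arrays of the Max-null lines were thus below every other array, with or without Dox. Whether the probe set detects the Max transcript that Dox controls is not given in the sources used here, so these values do not check the ablation. Pik3ca had a level of 8.27 in p110 alpha Max-null ESCs with Dox, against 7.39 at day 4 and 7.23 at day 6, and the difference did not pass the test (log2 difference 0.95 ± 0.34 SE, limma adjusted p = 0.11). Untreated levels of Pik3ca were 8.82 in p110 alpha Max-null ESCs and 8.50 in Max-null ESCs, within the 6.59 to 8.86 of the other 13 arrays. The other probe sets of Pik3ca had differences against day 4 and day 6 of 1.17 and 2.92, 1.23 and 1.98, and 0.91 and 1.53. The remaining ones had 0.55 and 1.47, and -0.11 and -0.39. Those with 1.17 and 1.23 against day 4 were past 2-fold against both days, and were not tested. Whether the probe sets of Pik3ca cover the introduced p110 alpha sequence is likewise not given.

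Of the genes tested, 1621 (11.5%) differed at least 2-fold against both days. p110 alpha Max-null ESCs with Dox had 940 of them (6.65%) higher and 681 (4.82%) lower. The larger differences were mostly in the lower genes. Differences of at least 4-fold against both days were found for 85 higher and 202 lower genes, and of at least 16-fold for 1 higher and 34 lower genes. Against day 4 alone 1102 genes were at least 2-fold higher (7.8%) and 819 lower (5.8%), whereas day 6 alone gave 2007 higher and 1196 lower genes. A limma fit of the 5 arrays set p110 alpha Max-null ESCs with Dox against the mean of both Max-null days. It passed 1372 genes (9.71%) at an adjusted p under 0.05, of which 770 (5.45%) were higher and 602 (4.26%) lower. Every one of the 1372 was also at least 2-fold different against both days, and they made up 84.6% of the genes that were. The fit has 1 residual degree of freedom, takes both days as samples of 1 group and assumes that the lone p110 alpha array varies as they do. In a model that takes the difference between the lines as the same with and without Dox, limma passed 0 genes (smallest adjusted p = 0.0692), with 1410 at an unadjusted p under 0.05, so the limma calls depend on the model. An exact permutation test of 1 sample against 2 cannot give a one-sided p below 0.333. The split moved with the scaling of the arrays: 1352 higher and 627 lower genes passed after each array was centred on its median, and 471 higher and 543 lower after quantile normalization. Single genes with Dox are called higher or lower below only where they passed the limma test, and counts name their rule. Higher and lower compare p110 alpha Max-null ESCs with Max-null ESCs, and do not describe a change with Dox within a line. Where a gene was below the level filter of 4.64 in p110 alpha Max-null ESCs or on both Max-null days, it entered the test through the other group, and the size of its difference rests on values near the floor of the arrays. This limit holds for every such gene below and is repeated for some of them only. A log2 difference with an SE comes from that fit. Lists of genes are counted by the 2-fold rule against both days and then by limma. Beside the 2-fold counts of every list stand the 6.65% of all genes tested that were higher and the 4.82% that were lower.

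**Figure D1:**
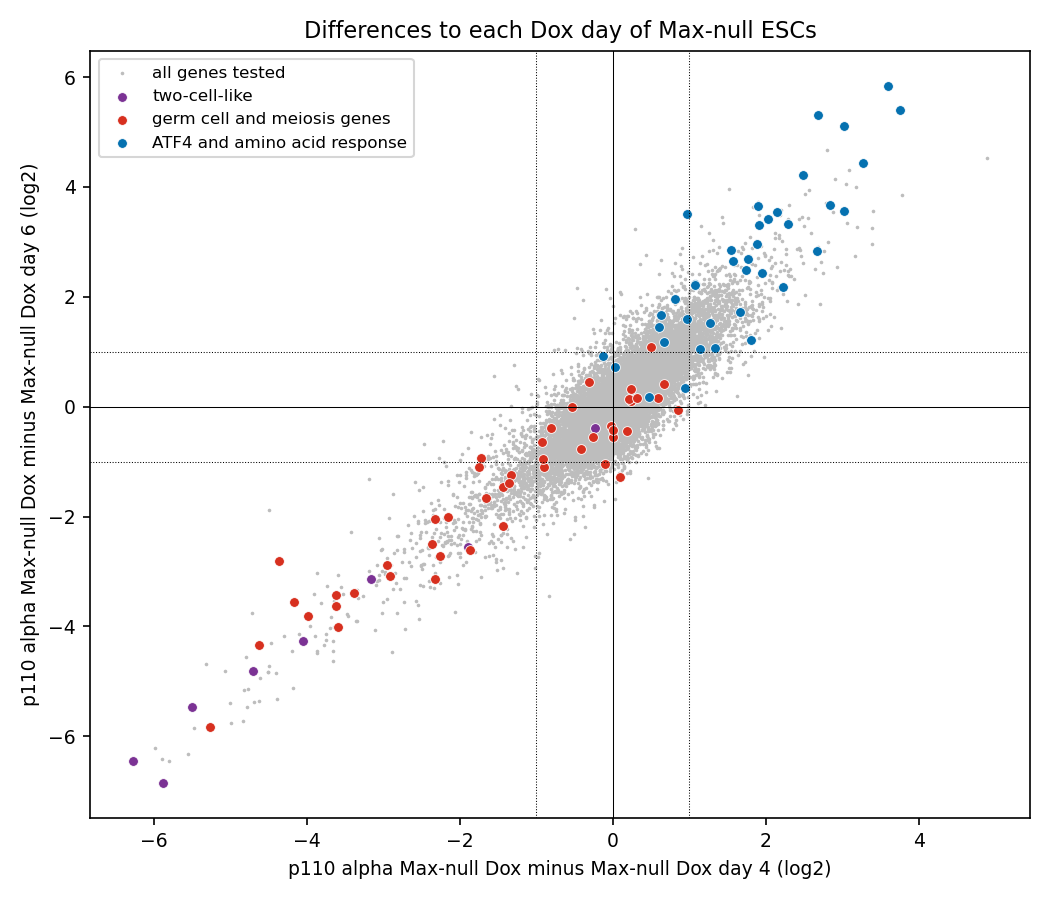
Difference of p110 alpha Max-null ESCs with Dox to Max-null ESCs at Dox day 4 (x axis) and at day 6 (y axis), in log2, with 1 point per gene tested and dotted lines at 2-fold. The 2-cell-like genes and many germ cell genes lie at the lower left, down to -6.85, and most genes of the ATF4 list at the upper right, up to 5.84, along a diagonal that includes the other genes. Both axes subtract from the same p110 alpha array, which favours a diagonal.

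Genes of the 2-cell embryo were the lowest. A small share of ESCs in culture transiently expresses genes of the 2-cell embryo, and the list of such 2-cell-like genes had 18 members, of which 9 were measured and 8 tested. Of the 8, 7 were at least 2-fold lower against both days, and the same 7 were lower by limma, with none higher. The median difference of the 8 was -4.38 against day 4 and -4.53 against day 6, where the medians over all genes tested were 0.08 and 0.06. Tcstv1 had a level of 4.67 in p110 alpha Max-null ESCs with Dox, against 10.94 at day 4 and 11.13 at day 6 (log2 difference -6.36 ± 0.34 SE, limma adjusted p = 1.3e-05). That is 77.1-fold lower than at day 4. Tcstv3, of the same family, had 4.67 in p110 alpha Max-null ESCs with Dox, against 10.56 at day 4 and 11.52 at day 6 (-6.37 ± 0.42 SE, limma adjusted p = 1.7e-05). Sp110, a nuclear body protein, stood at 6.95, against 12.45 at day 4 and 12.41 at day 6, and Zfp352, a zinc finger gene, at 8.31, against 13.02 and 13.12. Usp17la, of a family of ubiquitin peptidases, had 9.57, against 13.62 at day 4 and 13.82 at day 6. Arg2, the mitochondrial arginase, had 7.78, against 10.94 and 10.93. Duxf3, encoding the Dux homeobox factor that switches on many 2-cell genes, had 3.46, against 5.36 at day 4 and 6.01 at day 6 (-2.22 ± 0.38 SE, limma adjusted p = 0.005). Its level in p110 alpha Max-null ESCs lay below the level filter. The member that did not pass was Eif1ad, with 10.41 in p110 alpha Max-null ESCs with Dox, against 10.64 and 10.80. Tcstv, Usp17l and Dux genes belong to families of near-identical copies, so single members may share signal.

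Without Dox Tcstv1, Tcstv3, Sp110 and Zfp352 were far below the Max-null days in both lines. They were nevertheless above the highest of the other 13 arrays of the series, which was 3.21 for Tcstv1 and 5.13 for Zfp352. Untreated p110 alpha Max-null ESCs had Tcstv1 at 3.84 and untreated Max-null ESCs at 4.11, and Zfp352 was at 6.50 and 6.81 in the same order of lines. No 2-cell-like gene differed 2-fold between the untreated lines. The level of Zfp352 in p110 alpha Max-null ESCs with Dox, 8.31, was above both untreated levels and above the 4.22 to 5.13 of the other 13 arrays, so it was not at the floor of the series. Apart from Tex101, a germ cell gene given below, the remaining genes of the 12 lowest had a like pattern with Dox. Gm7969, LOC664787, Pramel18, AF067063, BC147527, Tdpoz1, D13Ertd608e and Gm11544 had levels of 3.18 to 6.81 in p110 alpha Max-null ESCs with Dox, against 8.64 to 12.79 at day 4 and 9.03 to 13.01 at day 6. BC147527 was the lowest of them, at 3.18 against 8.64 and 9.03. Their highest level in the other 13 arrays was 5.38, that of Gm11544.

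**Figure D2:**
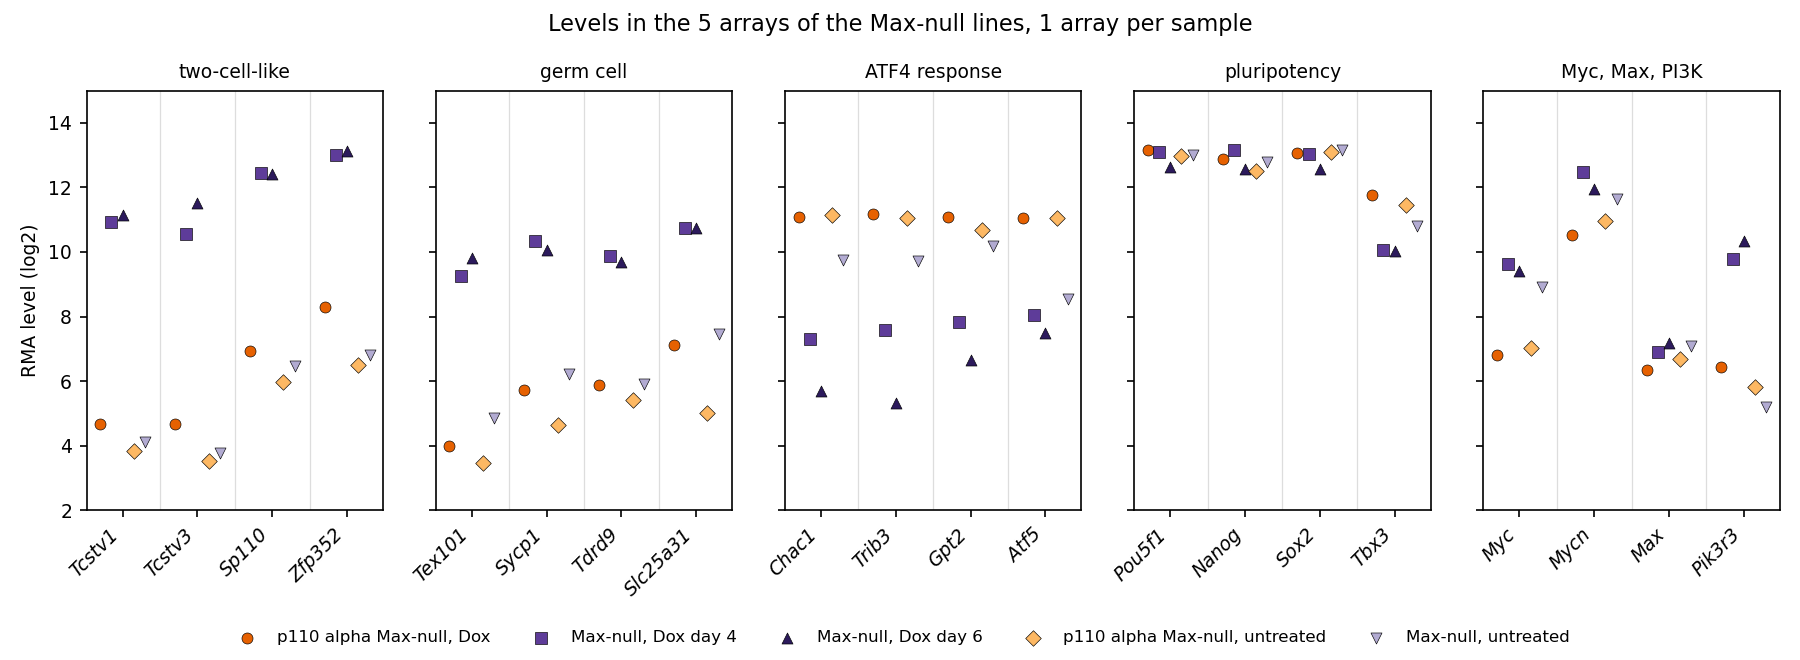
RMA levels (log2, y axis) of 20 genes in the 5 arrays of the Max-null lines, 1 symbol per array, in the order p110 alpha Max-null with Dox, Max-null day 4, Max-null day 6, p110 alpha Max-null untreated and Max-null untreated. With Dox the 2-cell-like and germ cell genes shown are at 4.00 to 8.31 in p110 alpha Max-null ESCs and at 9.26 to 13.12 in Max-null ESCs, and the ATF4 response genes are the other way round.

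Of the 27 lists the germ cell and meiosis list had the most lower genes. Of 54 members 49 were measured and 46 tested, and 23 were at least 2-fold lower against both days, each of which was also lower by limma. None was higher by either rule. The median difference was -1.35 against day 4 and -1.17 against day 6, and 32 members had negative differences on both days, while 7 had positive ones. The share of 50% that were lower stands beside 4.82% of all genes tested. In whole cultures, fewer cells of a type and less RNA per cell cannot be told apart. The 8 germ cell markers kept for the check of cell types had a summed linear level of 5058 in p110 alpha Max-null ESCs with Dox, against 25626 at day 4 and 26531 at day 6, and only Tex101 was not above the level filter, in p110 alpha Max-null ESCs with and without Dox. All 8 are members of the germ cell list and are among its lower genes, so the sum repeats those values and is no separate check. The part of these markers in the result was not tested.

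By role, genes of the synaptonemal complex join chromosomes in meiosis. Sycp1 had 5.71 in p110 alpha Max-null ESCs with Dox, against 10.34 at day 4 and 10.06 at day 6 (-4.48 ± 0.35 SE, limma adjusted p = 2.8e-05). Sycp2 had 6.07, against 9.69 and 9.50. Sycp3 had 11.36, against 12.69 and 12.60, so it was high in all 3 samples and differed by -1.29 ± 0.34 SE (limma adjusted p = 0.038). Hormad1, which marks unjoined chromosome axes, had 5.84, against 10.21 at day 4 and 8.64 at day 6. The cohesin subunits of meiosis Smc1b and Stag3 were at 6.85 and 9.05 in p110 alpha Max-null ESCs with Dox, with Smc1b at 9.11 and 9.57 and Stag3 at 11.20 and 11.06 in Max-null ESCs at day 4 and day 6.

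Of genes that act early in meiosis, 3 that passed are given. Stra8, the gene induced by retinoic acid at meiotic entry, had 8.78 in p110 alpha Max-null ESCs with Dox, against 12.37 at day 4 and 12.79 at day 6 (-3.80 ± 0.36 SE, limma adjusted p = 0.00011). Meioc, which stabilises the meiotic programme, had 6.90, against 9.26 and 9.40. Prdm9, which places recombination hotspots, had 4.66, against 6.10 and 6.83. The meiotic genes Rec8, Dmc1, Mei4, Msh4, Msh5, Syce2, Tex12, Hormad2, Spo11 and Ythdc2 of the list did not pass, with the recombinase Dmc1 at 7.75, against 8.66 at day 4 and 8.69 at day 6 (limma adjusted p = 0.11). For Stra8 the untreated lines had 9.31 in p110 alpha Max-null ESCs and 9.43 in Max-null ESCs, levels within 0.12 of each other.

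Germ granule and piRNA genes of the list were lower or did not pass, and none was higher by either rule. Ddx4, the helicase of germ granules, had 9.29 in p110 alpha Max-null ESCs with Dox, against 11.61 and 11.33. Dazl, a germ cell RNA-binding protein, had 9.49, against 12.40 and 12.57. Tdrd9, a helicase that silences transposons through piRNAs, had 5.89, against 9.87 at day 4 and 9.70 at day 6 (-3.89 ± 0.34 SE, limma adjusted p = 7.6e-05). Mov10l1, another piRNA helicase, had 7.94, against 10.90 and 10.83, and Mael, a piRNA factor, 8.87, against 10.30 and 10.34. These 5 passed the test, while the piRNA genes Tdrd12, Tdrkh, Piwil1, Piwil2, Asz1 and Pld6 of the same list did not, with Piwil2 at 8.63, against 8.94 and 8.18. Tex101, a surface protein of germ cells, had 4.00, a level below the filter, against 9.26 at day 4 and 9.82 at day 6 (-5.54 ± 0.37 SE, limma adjusted p = 1.7e-05). Slc25a31, the ADP/ATP carrier of the testis, had 7.12, against 10.73 and 10.75 (-3.62 ± 0.34 SE, limma adjusted p = 0.00011). In this and the other lists, members beyond the 4 with the largest differences were chosen for naming with their values seen.

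Some of these genes had other levels in the lines without Dox, a pair of single arrays that was not tested. The median untreated difference of the 46 genes was -0.54, p110 alpha Max-null minus Max-null, and 14 were at least 2-fold lower and none at least 2-fold higher in untreated p110 alpha Max-null ESCs, against 4.35% of all genes tested that were lower in that pair (615) and 1.22% (173) that were higher. Slc25a31 had 5.01 in untreated p110 alpha Max-null ESCs and 7.48 in untreated Max-null ESCs, and Mael 6.62 and 8.89 in the same order. For Mael the untreated difference of -2.27 was larger than the -1.43 against day 4.

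Promoters of the lower germ cell genes are shown for the E-box, the motif that Max complexes bind, in 4 genes that hold it. The windows run from 250 bases before to 50 after the start in RefSeq on GRCm38.p6, in the direction of the gene, with the E-box CACGTG, which reads the same on both strands, in capitals. Sycp1 lies on the minus strand at chr3:102936051-102936350, Slc25a31 on the plus strand at chr3:40708621-40708920, Mael on the minus strand at chr1:166238695-166238994 and Sycp3 on the plus strand at chr10:88459337-88459636.
Sycp1: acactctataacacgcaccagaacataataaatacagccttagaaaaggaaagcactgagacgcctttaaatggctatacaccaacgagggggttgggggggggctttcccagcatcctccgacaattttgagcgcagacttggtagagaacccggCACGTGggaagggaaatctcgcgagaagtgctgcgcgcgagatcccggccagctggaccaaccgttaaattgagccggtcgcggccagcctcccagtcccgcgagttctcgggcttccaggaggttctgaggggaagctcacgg
Slc25a31: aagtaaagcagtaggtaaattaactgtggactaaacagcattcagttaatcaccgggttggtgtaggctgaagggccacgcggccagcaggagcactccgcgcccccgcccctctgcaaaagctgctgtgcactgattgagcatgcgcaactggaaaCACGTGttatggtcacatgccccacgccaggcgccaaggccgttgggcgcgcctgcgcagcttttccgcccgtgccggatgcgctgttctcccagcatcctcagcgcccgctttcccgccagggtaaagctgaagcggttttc
Mael: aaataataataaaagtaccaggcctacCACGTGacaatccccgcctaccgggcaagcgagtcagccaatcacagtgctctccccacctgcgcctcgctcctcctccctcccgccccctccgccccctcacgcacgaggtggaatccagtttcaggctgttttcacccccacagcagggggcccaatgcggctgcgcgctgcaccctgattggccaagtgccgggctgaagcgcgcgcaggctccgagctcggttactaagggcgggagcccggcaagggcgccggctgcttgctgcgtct
Sycp3: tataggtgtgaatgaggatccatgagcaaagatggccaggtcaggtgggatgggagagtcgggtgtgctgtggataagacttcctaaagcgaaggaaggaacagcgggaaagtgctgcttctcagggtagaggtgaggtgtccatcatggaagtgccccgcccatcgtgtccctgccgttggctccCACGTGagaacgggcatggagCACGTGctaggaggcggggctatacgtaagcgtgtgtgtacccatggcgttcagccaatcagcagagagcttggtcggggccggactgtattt
The window of Sycp3 holds the E-box at 2 places and the other 3 windows at 1. Of the 23 lower genes 21 had a window in the table, and 11 of these (52.4%) held the E-box, against 11.4% of the 11351 genes tested with a window and 7.15% of all 32851 promoter windows. Among all 40 tested members of the list with a window 18 (45%) held it, so the share describes the list as well as its lower members. The E2F6-type letters GCGGGA, searched with TCCCGC for the other strand, were in 10 of the 21 windows (47.6%), against 37.8% of genes tested. Over all genes at least 2-fold different, the E-box was in 11.8% of the higher and 13.8% of the lower. None of the 4 lower 2-cell-like genes with a window held it.

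The ATF4 list had the most higher genes of the 27. ATF4 is a transcription factor that is translated when amino acids are scarce or proteins misfold, and its targets import and make amino acids. Of 40 members 38 were measured and tested. At least 2-fold higher against both days were 28 of the 38, none was lower, and 26 were higher by limma. The median difference was 1.76 against day 4 and 2.57 against day 6, and 37 of the 38 had positive differences on both days. The share of 73.7% stands beside 6.65% of all genes tested. The 2 genes past 2-fold that did not pass limma were Wars (adjusted p = 0.052) and Sesn2 (adjusted p = 0.067).

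The factors themselves come first. Atf4 had a level of 12.67 in p110 alpha Max-null ESCs with Dox, against 11.59 at day 4 and 10.43 at day 6 (1.66 ± 0.46 SE, limma adjusted p = 0.043). Atf5, a related factor, had 11.07, against 8.04 and 7.50 (3.30 ± 0.37 SE, limma adjusted p = 0.00037). Ddit3, the stress factor CHOP, had 10.37, against 7.69 and 7.53, and Cebpb 10.54, against 7.71 and 6.87. All 4 were higher in p110 alpha Max-null ESCs than on either day, and the Atf4 transcript itself differed least.

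Among the targets, Chac1, Trib3 and Nupr1 are given first, and they are not the only ones that differed between the days. Chac1, which degrades glutathione, had 11.08 in p110 alpha Max-null ESCs with Dox, against 7.32 at day 4 and 5.69 at day 6 (4.58 ± 0.54 SE, limma adjusted p = 0.00054). Trib3, a pseudokinase that binds Akt and ATF4, had 11.18, against 7.57 and 5.33 (4.72 ± 0.68 SE, limma adjusted p = 0.0018). Nupr1, a stress-induced chromatin protein, had 11.07, against 8.37 and 5.76. With a trended robust prior neither Chac1 nor Trib3 passed. In each of the 3 the day 6 level was at least 1.6 below the day 4 level, so the fold depends on the day: Trib3 was 12.1-fold higher than at day 4 and 57.4-fold higher than at day 6.

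Several enzymes of amino acid metabolism in the list passed. Gpt2, which makes alanine, had 11.09 in p110 alpha Max-null ESCs with Dox, against 7.83 at day 4 and 6.66 at day 6 (3.85 ± 0.46 SE, limma adjusted p = 0.00052). Asns, asparagine synthetase, had 13.23, against 11.69 and 10.38. The serine enzymes Phgdh, Psat1 and Psph were at 12.48, 12.19 and 10.99 in p110 alpha Max-null ESCs with Dox, against 10.91, 10.29 and 8.96 at day 4 and 9.83, 8.53 and 7.58 at day 6. Mthfd2 and Shmt2, which pass the carbon of serine on in mitochondria, had 10.94 and 11.66, against 8.80 and 9.78 at day 4 and 7.39 and 8.70 at day 6. Aldh18a1, of proline synthesis, had 11.40, against 9.49 and 8.10. Got1, the aspartate aminotransferase, did not pass, with 11.13, against 10.46 and 9.94, nor did Cbs, of cysteine synthesis, with 5.97, against 5.49 and 5.79. Of the transporters, Slc7a1, which imports arginine and lysine, had 12.28, against 9.99 and 8.96, and Slc7a11, which imports cystine, 5.65, against 3.43 and 3.47. The members past no rule included the leucine transporter Slc7a5 with 11.62, against 10.81 and 9.66, and Slc38a2 with 12.14, against 12.28 and 11.22, the 1 gene whose sign differed between the days.

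Before Dox the list already leaned the same way: its median untreated difference was 0.81, with 12 members at least 2-fold higher and none lower in untreated p110 alpha Max-null ESCs, where 1.22% of all genes tested were higher and 4.35% lower. Atf5 was at 11.05 in untreated p110 alpha Max-null ESCs and 8.55 in untreated Max-null ESCs, and Slc7a11 at 6.66 and 3.63. Psat1 and Gpt2 differed less, at 12.04 and 10.67 in untreated p110 alpha Max-null ESCs and 12.20 and 10.19 in untreated Max-null ESCs. In p110 alpha Max-null ESCs the levels with and without Dox were close, with Trib3 at 11.18 and 11.05, Chac1 at 11.08 and 11.16 and Asns at 13.23 and 12.85.

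Promoters of 3 higher genes are shown because they hold the letters of the ATF4 response element, TGATGNAA, searched with TTNCATCA for the other strand and put in capitals. This motif was added with the results seen. The windows are from the same RefSeq table, with Trib3 on the minus strand at chr2:152344011-152344310, Chac1 on the plus strand at chr2:119350992-119351291 and Asns on the minus strand at chr6:7693160-7693459.
Trib3: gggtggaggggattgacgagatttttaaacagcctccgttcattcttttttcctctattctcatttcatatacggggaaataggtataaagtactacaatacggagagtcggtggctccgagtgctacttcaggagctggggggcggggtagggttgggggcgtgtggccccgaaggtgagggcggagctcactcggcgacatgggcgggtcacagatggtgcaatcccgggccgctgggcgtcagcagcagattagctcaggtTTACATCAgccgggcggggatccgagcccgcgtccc
Chac1: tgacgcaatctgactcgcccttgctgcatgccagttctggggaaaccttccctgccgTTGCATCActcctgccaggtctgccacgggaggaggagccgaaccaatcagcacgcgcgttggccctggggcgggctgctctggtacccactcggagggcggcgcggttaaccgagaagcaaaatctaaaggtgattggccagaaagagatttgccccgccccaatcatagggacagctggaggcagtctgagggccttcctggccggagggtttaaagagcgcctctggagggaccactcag
Asns: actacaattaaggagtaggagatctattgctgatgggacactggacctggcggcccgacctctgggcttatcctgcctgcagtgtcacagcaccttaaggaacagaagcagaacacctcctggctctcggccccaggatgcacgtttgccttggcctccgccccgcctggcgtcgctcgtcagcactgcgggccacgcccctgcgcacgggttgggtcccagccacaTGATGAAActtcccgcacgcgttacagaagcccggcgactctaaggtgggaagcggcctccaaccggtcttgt
Each of the 3 windows holds the element once. Of the 28 list members at least 2-fold higher 26 had a window, and 9 of these (34.6%) held the element, against 2.82% of genes tested and 3.97% of all promoter windows. All 33 tested members with a window included 13 (39.4%) that held it. Among all genes at least 2-fold different it was in 4.52% of the higher and 3.92% of the lower.

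The 12 highest genes included 3 of the ATF4 list, Chac1, Trib3 and Gpt2. B4galnt2, a glycosyltransferase that makes the Sda antigen, was the 1 gene at least 16-fold higher. It had 9.45 in p110 alpha Max-null ESCs with Dox, against 4.56 at day 4 and 4.93 at day 6 (4.71 ± 0.35 SE, limma adjusted p = 2.4e-05). Its other 3 probe sets gave smaller differences against day 4, of 1.93, 1.65 and -0.35, and the mean of all 4 gave a line difference of 1.96. Inhbe, the inhibin beta E subunit, had 7.78, against 3.99 and 3.92 (3.82 ± 0.34 SE, limma adjusted p = 8.2e-05), with both Max-null days below the level filter. G0s2, an inhibitor of fat breakdown, had 9.52, against 6.12 and 5.97. Aldh1l2, a mitochondrial folate enzyme, had 7.99, against 4.60 and 4.74, and Kdelr3, a receptor that returns proteins to the endoplasmic reticulum, 9.18, against 5.98 and 5.91. These 5 genes, the higher ones with the smallest limma p-values, have values at day 4 and day 6 within 0.4 of each other. The fit takes its spread from the 2 days, so its smallest p-values favour genes whose days are close. Grb10, an imprinted adaptor that restrains insulin signalling, had 11.99, against 8.93 at day 4 and 7.93 at day 6 (3.56 ± 0.43 SE, limma adjusted p = 0.00061). Niban1, a stress-induced gene, had 9.89, against 6.80 and 5.59, Fam13c 9.00, against 5.82 and 5.00, and Tox3 7.06, against 4.00 and 3.73. The difference of Fam13c was 3.59, and 1.79 with the mean of its probe sets. Kdelr3 and Tox3 hardly differed between the untreated lines, with 9.02 in p110 alpha Max-null ESCs and 8.91 in Max-null ESCs for Kdelr3 and 5.58 and 5.17 for Tox3. G0s2 did, with 9.81 and 7.06.

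Of the 13 genes of the Myc, Max and Mxd network, 4 were lower and none higher by both rules. Myc had a level of 6.83 in p110 alpha Max-null ESCs with Dox, against 9.64 at day 4 and 9.43 at day 6 (-2.71 ± 0.35 SE, limma adjusted p = 0.00086). Mycn, its relative, had 10.53, against 12.47 and 11.96 (-1.69 ± 0.36 SE, limma adjusted p = 0.016). Mxd4, a Max partner that opposes Myc, had 5.46, against 6.69 and 7.01, and Mlxip, a glucose-sensing relative, 7.31, against 8.54 and 8.55. Untreated Myc was 7.03 in p110 alpha Max-null ESCs and 8.91 in Max-null ESCs, so the lines differed in the same direction without Dox. Mga, the Max partner in PRC1.6, had 10.55, against 10.95 and 10.27, which did not pass. In the PRC1.6 list 1 of 16 genes (6.25%) was higher, near the 6.65% of all genes tested, and none lower. That gene was Yaf2, with 7.92, against 6.43 at day 4 and 5.99 at day 6 (1.71 ± 0.36 SE, limma adjusted p = 0.014). E2f6 had 8.41, against 7.62 and 7.53, and did not pass (limma adjusted p = 0.15).

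Among 27 PI3K and Akt components 2 (7.41%) were lower and none higher by both rules, where 4.82% of all genes tested were lower. Pik3r3, a regulatory subunit of PI3K, had 6.43 in p110 alpha Max-null ESCs with Dox, against 9.79 at day 4 and 10.34 at day 6 (-3.63 ± 0.37 SE, limma adjusted p = 0.00018). Without Dox it was 5.83 in p110 alpha Max-null ESCs and 5.19 in Max-null ESCs. Pik3cd, encoding the catalytic subunit p110 delta, had 11.97, against 13.33 and 13.90 (-1.64 ± 0.37 SE, limma adjusted p = 0.02). Rheb, which activates mTOR, had 12.27, against 11.61 and 11.39, and Akt1 6.25, against 6.03 and 5.94, and neither passed. FOXO factors are held outside the nucleus by Akt, and their target list of 26 genes went both ways, with 6 at least 2-fold higher and 6 lower, of which 5 and 4 passed limma. Higher were Bcl6 with 9.14, against 6.20 at day 4 and 6.59 at day 6 (2.74 ± 0.35 SE, limma adjusted p = 0.00095), and the cell cycle inhibitor Cdkn1b with 9.19, against 7.39 and 6.10. Lower were Pik3ip1, an inhibitor of PI3K, with 5.27, against 7.50 and 7.79 (-2.37 ± 0.35 SE, limma adjusted p = 0.0021), and the receptor Erbb3 with 7.71, against 9.35 and 9.30.

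None of the 8 core pluripotency genes differed at least 2-fold against both days or passed limma. Pou5f1 had 13.16 in p110 alpha Max-null ESCs with Dox, against 13.09 at day 4 and 12.63 at day 6, Sox2 13.07, against 13.03 and 12.57, and Nanog 12.87, against 13.15 and 12.57. For Pou5f1 and Sox2 the day 4 values lie within 0.07 of p110 alpha Max-null ESCs, and day 6 values are lower by 0.52 and 0.50. Of 27 naive pluripotency genes 5 were at least 2-fold higher and 1 lower, of which 2 and 1 passed limma. Tbx3, a factor that PI3K signalling sustains in ESCs, had 11.76, against 10.07 and 10.02 (1.71 ± 0.34 SE, limma adjusted p = 0.012), and Tfcp2l1 12.38, against 11.27 and 10.82 (1.33 ± 0.36 SE, limma adjusted p = 0.041). Tfcp2l1 did not pass without a level filter, after quantile normalization or with the mean of its probe sets, where its difference was 0.39, and quantile normalization left 2 genes of the list at least 2-fold higher and 3 lower. Klf5, Nr0b1 and Tet2 had differences of 1.03, 1.02 and 1.05 against day 4 and did not pass. The lower gene was Dppa3, a factor shared with germ cells and oocytes, with 4.60, against 8.89 and 8.77 (-4.23 ± 0.34 SE, limma adjusted p = 3.6e-05).

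The epiblast leaves naive pluripotency through a formative to a primed state. Of 20 genes of these states 8 were at least 2-fold lower and 2 higher, with 8 and 1 passing limma. Dnmt3a, a de novo DNA methyltransferase, had 7.72 in p110 alpha Max-null ESCs with Dox, against 10.12 at day 4 and 10.29 at day 6 (-2.49 ± 0.34 SE, limma adjusted p = 0.0014). With the mean of its probe sets the difference of Dnmt3a was -1.14 and did not pass. Lef1, a nuclear factor of Wnt signalling, had 5.54, against 7.84 and 8.27. Lefty1 and Lefty2, inhibitors of Nodal, had 8.64 and 5.66, against 11.10 and 8.08 at day 4 and 10.76 and 7.75 at day 6, and Nodal 11.23, against 12.47 and 12.48. Dusp6, a phosphatase induced by ERK, was the higher gene that passed limma, with 11.02, against 8.60 and 9.15. Of 18 Wnt targets and Tcf/Lef factors 6 were lower and 1 higher by fold, with 4 and 1 passing limma. Notum had 5.78, against 8.12 and 7.83, Axin2 7.09, against 8.40 and 8.54, and the higher gene Tcf7l2 6.99, against 5.07 and 5.11. For Lefty2 the untreated levels, 7.19 in p110 alpha Max-null ESCs and 11.04 in Max-null ESCs, differed more than those with Dox.

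Genes of differentiated lineages were mostly low in all 3 samples. Primitive and visceral endoderm had 7 of 25 genes at least 2-fold lower and 2 higher, with 6 and 2 passing limma. Foxa2 had 4.77 in p110 alpha Max-null ESCs with Dox, against 6.23 at day 4 and 7.55 at day 6, Cited1 3.82, against 5.67 and 5.72, and the higher genes were Sox7 with 5.32, against 3.85 and 3.90, and Lama1 with 10.52, against 9.30 and 8.83. The 10 markers kept for primitive endoderm summed to 370 in linear units, against 413 at day 4 and 641 at day 6, with the defining gene Gata4 not above the level filter in any of the 5 arrays. Neuroectoderm had 4 of 17 higher and 3 lower by both rules, among them Sox1 with 5.41, against 3.35 and 3.72, and Pax6 with 5.86, against 7.93 and 8.10. Trophoblast had 3 of 20 at least 2-fold lower and none higher, and the 2 that passed limma were Krt7 with 4.87, against 6.72 and 6.41, and Fgfr2 with 6.49, against 8.01 and 8.13. Of 14 primitive streak genes 1 was past 2-fold, Wnt8a with 3.86, against 4.92 and 4.97, and none passed limma. Fibroblast and feeder genes had 2 of 14 at least 2-fold lower and none higher, with Col6a1 passing limma at 4.13, against 5.89 and 6.10. The 10 fibroblast markers summed to 359, against 413 at day 4 and 754 at day 6, and Col3a1, Lum and Postn were not above the level filter in any array. The endoderm and fibroblast markers are also members of the lists just given, so their sums are no separate check. The part of these markers in the results was not tested.

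In the DNA replication and mitosis list 2 of 38 genes (5.26%) were lower and none higher by both rules, a share near the 4.82% of all genes tested. Ccnd2, a D-type cyclin, had 5.32 in p110 alpha Max-null ESCs with Dox, against 10.14 at day 4 and 10.47 at day 6 (-4.98 ± 0.35 SE, limma adjusted p = 2.2e-05), and 5.98 and 6.92 in untreated p110 alpha Max-null ESCs and untreated Max-null ESCs. Ccne2, an E-type cyclin, had 6.25, against 9.25 and 9.80 (-3.28 ± 0.37 SE, limma adjusted p = 0.0004). Of 41 ribosome biogenesis genes and Myc targets 3 (7.32%) were higher and 1 (2.44%), again Ccnd2, lower by both rules. The share higher is near the 6.65% of all genes tested. Gar1, of the complex that modifies ribosomal RNA, had 11.12, against 9.67 and 9.56, and Srm, spermidine synthase, 11.06, against 9.79 and 9.29. The median of the list was 0.35 against day 4 and 0.55 against day 6.

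Glycolysis and hypoxia genes are given with and without Dox. With Dox 7 of 30 were at least 2-fold lower and 1 higher, with 6 and 1 passing limma, and the medians were -0.08 against day 4 and -0.12 against day 6. Without Dox 20 of the 30 were at least 2-fold lower in p110 alpha Max-null ESCs, none was higher, and the median was -1.44, where 4.35% of all genes tested were lower and 1.22% higher. The limma contrast of the difference with Dox minus the untreated difference passed 3 of the 30, all more positive with Dox. The share of all genes tested that passed this contrast as more positive is given below with the untreated pair. That share moved strongly with the scaling of the arrays, and the untreated difference rests on 1 array for each line. P4ha2, a collagen prolyl hydroxylase, had 8.40 in p110 alpha Max-null ESCs with Dox, against 11.45 and 11.46, and Bnip3, a hypoxia-induced mitophagy receptor, 8.77, against 11.50 and 11.41. Untreated Bnip3 was 8.58 in p110 alpha Max-null ESCs and 12.38 in Max-null ESCs. The higher gene was Vegfa, with 8.62, against 7.00 and 6.83. Of 28 genes of cholesterol and fatty acid synthesis 1 (3.57%) was higher and 2 (7.14%) lower with Dox by both rules, beside 6.65% and 4.82% of all genes tested. Without Dox the median was -0.82, and 11 members were at least 2-fold lower in p110 alpha Max-null ESCs, beside the same 4.35% of all genes, while the contrast passed none of the 28 at the adjusted threshold. Dhcr7, of the last step of cholesterol synthesis, had 7.56 with Dox, against 9.23 and 9.31.

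**Figure D3:**
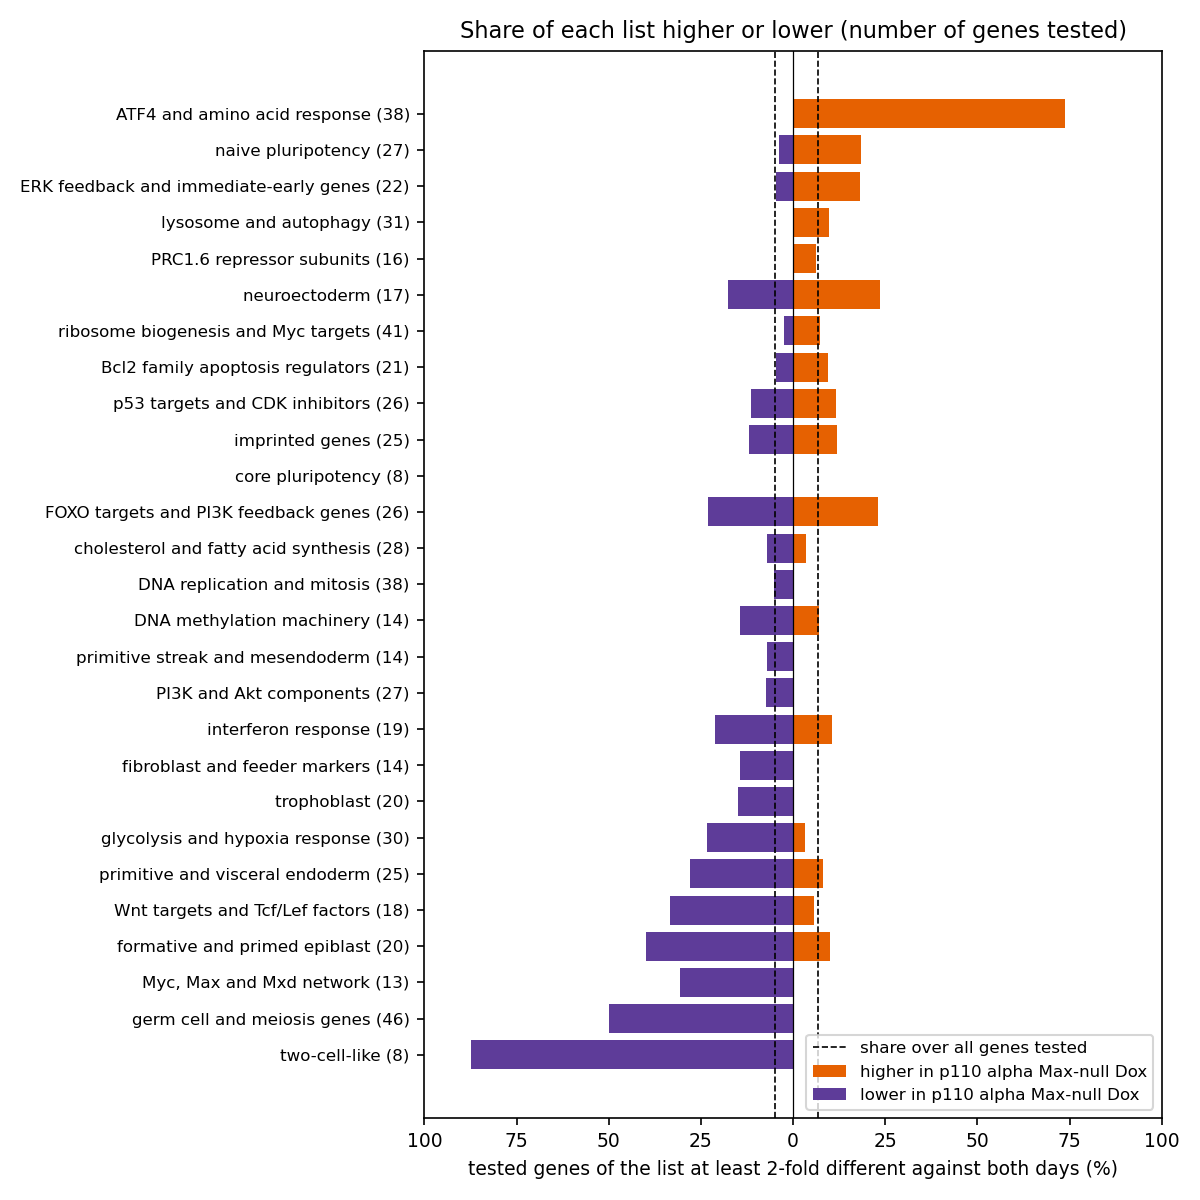
Share of tested genes of each of the 27 lists that were at least 2-fold higher (orange, to the right) or lower (purple, to the left) in p110 alpha Max-null ESCs with Dox against both Max-null days, with the number of genes tested in brackets and dashed lines at the shares over all genes tested, 6.65% and 4.82%. The ATF4 list reaches 73.7% higher, and the 2-cell-like and germ cell lists 87.5% and 50% lower.

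The difference between the lines without Dox was taken for every gene, as values of single arrays with no test. In the untreated pair 788 genes (5.58%) differed at least 2-fold. Of all genes tested, 173 (1.22%) were higher and 615 (4.35%) lower in untreated p110 alpha Max-null ESCs, the shares that stand beside the following counts. Of the 940 genes at least 2-fold higher with Dox 63 were at least 2-fold higher untreated, 6.70% of the Dox list and 36.4% of the untreated list, and 44 at least 2-fold lower. Of the 681 genes at least 2-fold lower with Dox 111 were at least 2-fold lower untreated, 16.3% of the Dox list and 18.0% of the untreated list, and 4 at least 2-fold higher. The median untreated difference was -0.06 for the 940 genes and -0.25 for the 681, against -0.04 for all genes tested. A limma contrast of the difference with Dox minus the untreated difference passed 232 genes (1.64%), 106 of them (0.75%) with a more positive and 126 (0.892%) with a more negative difference under Dox. Scaling moved this split from side to side: centring gave 424 and 186 genes and quantile normalization 14 and 78.

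The 2-cell-like list had 6 of its 8 genes, and the germ cell list 8 of 46, among the more negative. Tcstv1 had a difference of -6.36 with Dox and -0.28 untreated, and Pramel18, the gene with the largest change, -6.12 and 0.22. Capn3, a calcium-dependent protease, had a level of 6.09 in p110 alpha Max-null ESCs with Dox, against 10.55 at day 4 and 10.38 at day 6, while untreated it was higher in p110 alpha Max-null ESCs, 8.56 against 7.29. In the ATF4 list Gpt2 was the 1 gene of 38 that passed. Trib3 and Chac1 did not (limma adjusted p = 0.14 and 0.087), nor did Slc25a31 (0.32) and Myc (0.5).

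The 8 genes whose difference became most positive were taken among those at least 2-fold different with Dox. They passed as higher with Dox. In the untreated pair, which was not tested, their level in p110 alpha Max-null ESCs was below that in Max-null ESCs. Choosing genes by that change favours those higher with Dox and lower untreated, so the pattern follows largely from the choice. Pygl, liver glycogen phosphorylase, had 6.77 in p110 alpha Max-null ESCs with Dox, against 4.47 at day 4 and 4.30 at day 6, and 4.52 in untreated p110 alpha Max-null ESCs against 7.06 in untreated Max-null ESCs. Its difference changed by 4.93 ± 0.52 SE (limma adjusted p = 0.0017). Tgm2, a transglutaminase, had 7.71, against 5.88 and 6.13, and 5.50 untreated against 8.08. Of its 5 other probe sets 2 were below day 6, by differences of -0.09 and -0.10, and with the mean of all its probe sets its difference with Dox was 0.76 and did not pass. Sirt5, a mitochondrial deacylase, had 7.18, against 4.71 and 4.44, and 6.45 untreated against 7.86, and the mean of its probe sets gave a difference with Dox of 1.20. Clybl, a mitochondrial enzyme of the citramalyl-CoA pathway, had 9.02, against 6.59 and 5.61, and 8.53 untreated against 9.47. Fut9, which makes the SSEA-1 epitope of ESCs, had 6.31, against 5.06 and 3.84, and 6.02 untreated against 8.11, and it did not pass with Dox without a level filter, after quantile normalization or with the mean of its probe sets. Gm21283, Timm8a2 and Tstd3 shared the pattern, with untreated differences of -1.80, -2.37 and -1.02.

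**Figure D4:**
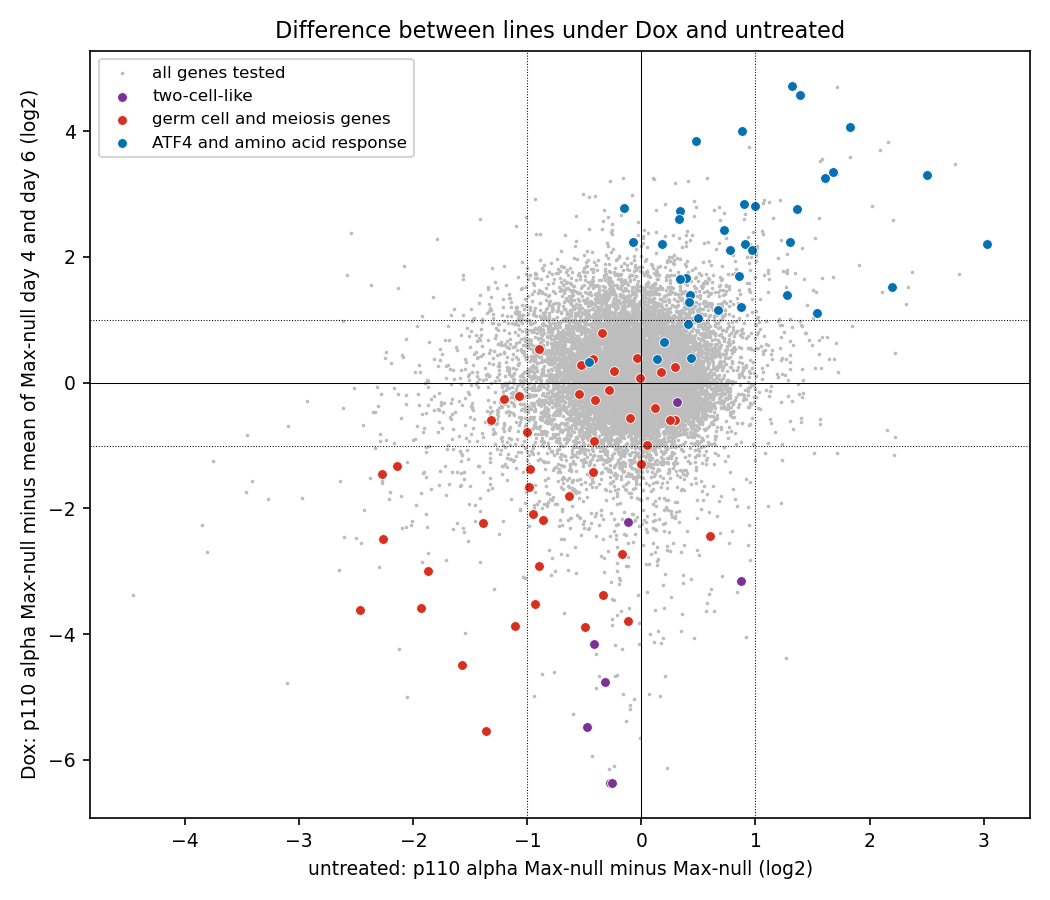
Difference between p110 alpha Max-null ESCs with Dox and the mean of both Max-null Dox days (y axis, log2) against the difference between the untreated lines (x axis, log2), 1 point per gene tested, with dotted lines at 2-fold. The 2-cell-like genes sit near an untreated difference of 0, with a median of -0.27, while germ cell genes reach -2.47 and the ATF4 list has a median untreated difference of 0.81.

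The other 13 arrays are of EBRTcH3 ESCs not labelled Max-null, some overexpressing c-Myc (wild or T58A) and some treated with 2i or the PI3K inhibitor LY294002, and give the range of the series outside the Max-null lines. Of the 681 genes at least 2-fold lower with Dox, p110 alpha Max-null ESCs lay within that range in 489 (71.8%), and both Max-null days lay above it in 556 (81.6%). Of the 940 genes at least 2-fold higher with Dox, p110 alpha Max-null ESCs lay within the range in 643 (68.4%), and both Max-null days lay below it in 592 (63.0%). Over all genes tested p110 alpha Max-null ESCs were within it in 80.4%, and both days were above it in 15.5% and below it in 15.5%. p110 alpha Max-null ESCs lay above it in 137 of the 681 (20.1%), 272 of the 940 (28.9%) and 14.1% of all genes tested. They lay below it in 55 (8.08%), 25 (2.66%) and 5.53%, in the same order. Both sets of genes were chosen by a difference of at least 2-fold from both Max-null days. Days outside the range are therefore favoured by the choice. Of those 13 arrays 4 appear to have been normalized apart from the rest, with medians of 5.03 to 5.05 where the other 14 arrays of the series had 5.31 to 5.52, which widens the range.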

How the data were processed

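RNA extracted with TRIzol was hybridised as biotinylated cRNA to Affymetrix arrays, per the labels' protocols. The deposited values are log2 intensities that the authors computed by RMA with affy, per the submitters' processing notes, with versions not given in the sources used here. Of 45101 probe sets 34958 named 1 gene in the platform annotation, 932 several and 9211 none. Of those naming 1 gene, 34754 matched a RefSeq gene. Each of 18194 genes took its probe set with the highest mean over 18 arrays. Genes were tested if at least 1 of the 3 Dox arrays exceeded 4.64, the 40th percentile of the table.

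Group means of the 5 arrays were fitted with limma 3.58.1 in R 4.3.3 (lmFit, eBayes, prior degrees of freedom 10.1), with 2-sided p-values adjusted by Benjamini-Hochberg over 14127 genes. The labels name no separate cultures, so p-values measure the spread between these samples. The fit was tested on simulated data. The members, 27 lists and tests were chosen with earlier results of these data known. Genes named by rule were Max, Myc, Mycn and Pik3ca, the 12 highest and 12 lowest by the smaller difference, the 8 each way, among those at least 2-fold different, whose difference changed most with Dox, the 5 smallest limma p-values each way and the 4 largest of each list. Alternatives covered filters, scaling, probe set choice, prior, model, thresholds and each day alone.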

Additional observations from a re-analysis of the deposited data

Results flagged for a closer look

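By the limma contrast of the difference with Dox minus the untreated difference between the lines, 232 genes changed. The change is given as log2, p110 alpha Max-null minus Max-null, with Dox minus untreated. Of the genes named by rule, the 2-cell-like genes changed by -6.11 (Tcstv3), -6.08 (Tcstv1), -5.00 (Sp110) and -4.44 (Zfp352). Other genes of the 12 lowest changed by -6.35 (Pramel18), -5.86 (LOC664787), -5.86 (Gm7969), -5.65 (BC147527), -5.50 (AF067063), -5.24 (D13Ertd608e), -5.10 (Tdpoz1) and -4.68 (Gm11544). The germ cell genes Tex101, Tdrd9 and Sycp1 changed by -4.17, -3.39 and -2.91, and Capn3 by -5.65. More positive with Dox were Pygl by 4.93, Tgm2 by 4.29, Gm21283 by 4.08, Sirt5 by 4.01, Fut9 by 3.94, Timm8a2 by 3.92, Clybl by 3.85 and Tstd3 by 3.65. Of the 12 highest genes Gpt2 changed by 3.37, Kdelr3 by 3.13, B4galnt2 by 3.00 and Tox3 by 2.79. Each value rests on 1 array for each line without Dox. These genes were named by their difference with Dox or by the change itself, so large changes are favoured by the choice.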

How the results depend on the processing

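The count of 1621 genes at least 2-fold different against both days became 3203 against day 6 alone, 3772 at a threshold of 1.5-fold and 287 at 4-fold, and stayed within 1.5 times under the other scalings, filters, probe set choices and day 4 alone. The 1372 genes passing limma became 5359 with the spread taken from 14 arrays and 2206 at an adjusted p under 0.1. With an additive model, in which the difference between the lines is the same with and without Dox, limma passed 0 genes, the smallest adjusted p being 0.0692, and 1410 had an unadjusted p under 0.05, against 3539 in the model with group means. The 232 genes whose difference changed with Dox became 138 without a level filter, 610 after centring, 92 after quantile normalization, 146 with the mean of all probe sets, 426 with the probe set of largest variance, 498 with a trended robust prior and 3270 with the spread from 14 arrays. Of 413 values for 46 named genes over 9 alternatives, 353 kept direction and call, 54 lost the call and 4 gained it. The 2 that reversed were Tgm2 and Timm8a2, both -0.13 in the additive model, whose line term includes the untreated difference. Counts of the 2-cell-like, germ cell and ATF4 lists ran from 6 to 7 lower, 22 to 25 lower and 25 to 30 higher over the scalings, filters and probe set choices, with none in the other direction, and against day 4 alone no count of the 27 lists moved by more than 1 gene in either direction. Centring each array moved the median difference of all genes to 0.14 against day 4 and 0.26 against day 6, and quantile normalization gave 0.05 and 0.01. The naive pluripotency list, with 5 genes higher and 1 lower, had 2 higher and 3 lower after quantile normalization. With the mean of all probe sets, the FOXO list went from 6 higher and 6 lower to 4 and 3. Primitive and visceral endoderm went from 2 and 7 to 1 and 3, and neuroectoderm from 4 and 3 to 1 and 2. Counts that rose there were PRC1.6 higher and naive pluripotency lower, each from 1 to 2. So did p53 targets lower, from 3 to 4, and trophoblast higher, from 0 to 1. With 1 array for each sample the number of arrays limits the precision, and p-values measure the spread between 2 days of 1 line.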

Other observations

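Smaller lists held single genes with large values. Of 25 imprinted genes 3 were higher and 3 lower by both rules, the lower ones led by Cdkn1c, a cell cycle inhibitor, with 6.69 in p110 alpha Max-null ESCs with Dox, against 9.50 at day 4 and 9.05 at day 6, and 8.56 in untreated p110 alpha Max-null ESCs against 7.62 in untreated Max-null ESCs. Of 19 interferon response genes 2 were at least 2-fold higher and 4 lower, with 1 and 3 passing limma. The class I genes H2-K1 and H2-D1 had 8.51 and 9.17 in p110 alpha Max-null ESCs with Dox, against 11.29 and 10.55 at day 4 and 11.83 and 11.40 at day 6, and are near-identical genes whose signals the probe sets cannot be assumed to separate, while B2m, their partner chain, had 9.69, against 8.59 and 8.59 (limma adjusted p = 0.067). Of 26 p53 targets and CDK inhibitors 3 were at least 2-fold higher and 3 lower with Dox, with 1 and 3 passing limma. Untreated, 11 of the 26 were at least 2-fold higher in p110 alpha Max-null ESCs and none lower, where 1.22% of all genes tested were higher and 4.35% lower.

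Of 21 Bcl2 family regulators 2 (9.52%) were higher and 1 (4.76%) lower by both rules, beside 6.65% and 4.82% of all genes tested. The higher ones were the death promoters Hrk, with 7.96 in p110 alpha Max-null ESCs with Dox, against 6.15 and 6.29, and Bid, with 8.85, against 7.81 and 7.01. Of 22 ERK feedback and immediate-early genes 4 were at least 2-fold higher and 1 lower, with 3 and 1 passing limma. Of 31 lysosome and autophagy genes 3 (9.68%) were higher and none lower by both rules, where 6.65% of all genes tested were higher. Among the 3 was Lamp2, a lysosomal membrane protein, with 10.96, against 9.73 and 9.08. In the DNA methylation machinery, where 1 of 14 genes was at least 2-fold higher and 2 lower, Setdb1, a histone methyltransferase that silences retroelements, had 9.60, against 10.94 and 11.09 (-1.42 ± 0.34 SE, limma adjusted p = 0.027).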
